A study of Mus musculus with 14 samples.

Results

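Exercise-linked myokines are proteins that muscle releases, or is reported to release, in connection with contraction and training. The 9 described here are Fndc5, Metrnl, Il15, Bdnf, Apln, Sparc, Ostn, Ctsb and Il7. They were taken by gene symbol from the expression tables, where 9 of 9 were found among 49585 genes. RNA came from hind limb skeletal muscle of mice labelled WT (wild type) or Myf6 KO (knockout of Myf6, also called MRF4, a muscle transcription factor), either without injury or after injury. This gave 4 groups of 3 libraries: uninjured WT, uninjured KO, injured WT and injured KO. The labels state neither the kind of injury nor the time after it, and the knockout allele, strain, age and sex of the animals are likewise not given in the sources used here. Each library also carries a code of a number and a letter, which the labels do not explain. The letter is L in uninjured and R in injured libraries, and the number is read here as an animal number. If the letters mean left and right, injury cannot be told apart from side. The same 3 numbers occur with both letters within a genotype and are read here as the same animal, while the numbers of WT and KO animals differ, so genotype cannot be told apart from litter or batch. The study's title asks whether Myf6 acts through myokines to maintain the adult muscle stem cell pool.

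As background, a myokine reaches its target in steps: the gene is transcribed in the fibre, the protein enters the secretory path or is shed from the membrane, and a receptor on muscle or on a distant organ receives it. Fndc5 is a membrane protein whose outer part is shed as irisin, and Metrnl (meteorin-like), Apln (apelin) and Ostn (osteocrin, or musclin) are secreted as hormones. Il15 and Il7 are cytokines best known for supporting lymphocytes, Bdnf is a neurotrophin, Sparc is a collagen-binding matrix protein, and Ctsb is a lysosomal protease that can also be secreted. RNA levels inform only on the first of these steps.

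Levels are in RPM, reads assigned to a gene per 1000000 assigned reads. RPM takes no account of transcript length, so the values of different genes are not ranked against each other. Depth ranged from 1880087 to 49392472 reads per library. The smallest library was uninjured WT replicate 2, in which 3 reads correspond to 1.60 RPM, against 0.0607 to 0.236 RPM in the others. The share of reads from mitochondrial genes was 13.8% to 22.3% in uninjured WT, 3.63% to 15.3% in uninjured KO, 8.35% to 14.8% in injured WT and 4.30% to 23.2% in injured KO. The labelled tissue was borne out by the markers: 8 fibre genes (Acta1, Ckm, Ttn, Mb, Myh1, Myh2, Myh4 and Tnnt3) summed to between 110090 and 170150 RPM in every library. Their sum was higher in uninjured KO (159760 to 170150) than in uninjured WT (111220 to 122670), without overlap. Of these genes Ckm and Tnnt3 separated on their own, while Acta1, Ttn, Mb, Myh1, Myh2 and Myh4 overlapped. The sum of 6 macrophage markers (Adgre1, Csf1r, Cd68, C1qa, C1qb and Mrc1) was lower in KO without overlap in both states, at 40.9 to 59.2 against 65.4 to 123 RPM uninjured and 59.7 to 70.3 against 75.0 to 110 RPM injured, with none of the 6 at 0 in any library. Taken singly, C1qb and Mrc1 separated in both states, Adgre1, Cd68 and C1qa only in uninjured muscle, and Csf1r in neither. The sum of 5 adipocyte markers (Adipoq, Plin1, Cfd, Fabp4 and Cidec) was higher in injured KO (1365 to 2984 RPM) than in injured WT (383 to 1312 RPM) without overlap, while the uninjured groups overlapped (1685 to 3180 against 1198 to 2007 RPM). Taken singly, each of the 5 overlapped between injured KO and injured WT. Myf6 itself was 46.2, 25.0 and 111 RPM in uninjured WT and 1.86, 3.46 and 2.27 RPM in uninjured KO. After injury it was 47.9, 121 and 72.5 RPM in WT and 3.32, 2.88 and 3.02 RPM in KO, so both comparisons matched their labels. The changes were −3.90 (SE 0.51, limma adjusted p = 0.0215) and −4.22 (SE 0.33, limma adjusted p = 0.00697) on the log2(RPM + 1) scale.

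None of the myokine genes passed the test for an effect of the Myf6 knockout or of injury. The test was limma on log2(RPM + 1) with Benjamini-Hochberg adjustment over all genes and a threshold of 0.05. Of the 9 genes, 7 reached 1 RPM in at least 3 libraries and were tested, and Bdnf and Il7 did not. In uninjured muscle 0 of 7 passed between KO and WT, where 0.281% of 12460 genes did. In injured muscle 0 of 7 passed, where 0.269% of 12625 genes did. For injury in WT, injury in KO and the genotype by injury interaction, 0 of 7 passed and the share over 13337 genes was 0%. At an unadjusted p under 0.05 the counts were 0 of 7 for uninjured KO against WT (14.2% of all genes), 1 of 7 for injured KO against WT (Ostn, 10.3%), and 0 of 7 for injury in WT (1.29%), for injury in KO (3.51%) and for the interaction (1.56%). With edgeR and with DESeq2 on reads recovered from the RPM values, 0 of 7 passed in each of these comparisons. For uninjured KO against WT, 1 of 7 passed with the replicate number as a block (Ostn, limma adjusted p = 0.0213), where 752 of 12460 genes did. With the mitochondrial share as a covariate, an alternative added after seeing the data, 1 of 7 passed (Ctsb, limma adjusted p = 0.0129). In that fit 3746 of 12460 genes passed and the median change of all genes was −0.67. The largest estimates were for Ostn, higher in KO in both states, and Il15, lower in uninjured KO. Their sizes and spreads follow gene by gene.

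**Figure D1:**
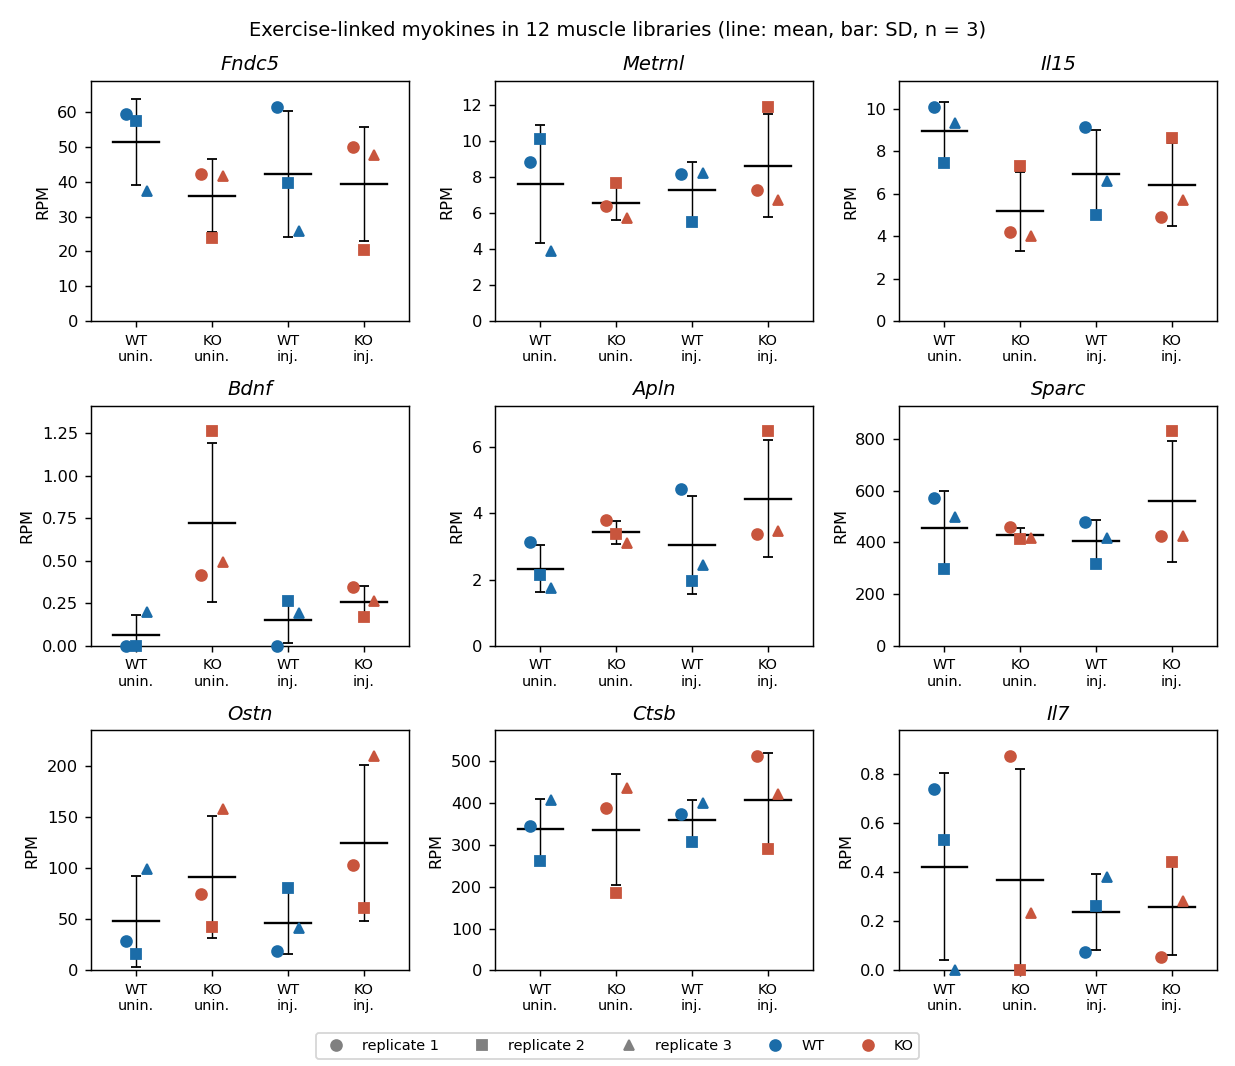
Level of each myokine gene in RPM (vertical axis, from 0, own scale per gene) in the 12 libraries, grouped as uninjured (unin.) WT and KO and injured (inj.) WT and KO. Points are libraries, with shape giving the replicate number and colour the genotype, horizontal lines are means and bars are 1 SD (n = 3, ending at the panel's edge where they pass it). Il15 and Bdnf are the genes whose uninjured WT and KO points do not overlap.

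The binding data came from cultured cells. A Flag antibody ChIP of Myf6 in primary myotubes grown from muscle satellite cells, with 1 ChIP library and 1 control, gave a list of 12898 peaks. With 1 library there is no replicate check. Fold enrichment, the height of a peak over its local background, is the authors' value and had a median of 7.68. A gene start was found in the RefSeq promoter table (GRCm38.p6) for 5 of the 9 myokines, namely Fndc5, Metrnl, Bdnf, Apln and Sparc. A peak centre lay within 50 kb of the start for 2 of these 5 (Fndc5 and Sparc), against 39.1% of 17491 protein-coding genes with a start. Within 10 kb it was 2 of 5 against 12.6%, and within 100 kb 3 of 5 against 56.1%. Counting only peaks with a fold of at least 10, it was 1 of 5 (Fndc5) against 15.2%. When the whole gene and 50 kb on each side were used, which all 9 genes allow, 3 of 9 had a peak (Fndc5, Sparc and Ctsb) against 46.3% of 21896 genes.

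Sparc was the myokine with a peak over its promoter window. The peak, at chr11:55420026-55420249, had a fold enrichment of 5.99, which put it at the 24.4 percentile of the list, and a −log10 q of 7.17. Relative to the Sparc start, with upstream negative, its centre lay at −57.5 bases. A peak covered part of the 250 bases before the start in 231 of 17491 genes, or 1.32%. A second peak at chr11:55415099-55415236 lay inside the gene (fold 5.80), and another at chr11:55378484-55378646 lay 15.6 kb beyond its end (fold 6.46). Fndc5 had a peak of fold 3.67, at the 1.88 percentile of the list, at chr4:129137667-129137821, with its centre 745 bases after the start. It also had one of fold 5.19 at chr4:129146016-129146233, just past the gene's end, and one of fold 11.5 at chr4:129108766-129108908, 28.0 kb upstream of the gene. For Ctsb, peaks of fold 13.6 and 6.12 lay 13.7 kb and 27.1 kb from the gene. The nearest peak was 96.6 kb away for Metrnl (fold 14.0) and 84.1 kb for Il7 (fold 8.70). For Bdnf, Il15 and Ostn it was 453, 478 and 667 kb away, and for Apln 2900 kb. Peaks were sparse on the chromosomes of Apln and Ctsb, at 1.17 per Mb on X and 1.95 per Mb on chromosome 14, against 4.39 to 7.33 on the other 18 chromosomes listed.

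Myogenic regulatory factors, the family of Myf6, bind the E-box, whose letters are CANNTG. The pattern reads the same on both strands, so one search covers both, and CAGCTG is one of its forms. The Sparc and Metrnl windows are printed because both hold a CAGCTG close to the start, with a Myf6 peak in the first and none in the second. Each line is the 250 bases before the RefSeq start in GRCm38.p6, 5′ to 3′ on the gene's strand, with E-boxes in capitals. The Sparc window is chr11:55420081-55420330 on the minus strand and the Metrnl window is chr11:121702177-121702426 on the plus strand.
Sparc: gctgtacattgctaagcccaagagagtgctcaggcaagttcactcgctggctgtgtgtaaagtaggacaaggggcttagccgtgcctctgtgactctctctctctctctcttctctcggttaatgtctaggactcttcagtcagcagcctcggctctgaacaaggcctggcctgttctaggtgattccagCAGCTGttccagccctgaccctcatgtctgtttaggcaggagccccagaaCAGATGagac
Metrnl: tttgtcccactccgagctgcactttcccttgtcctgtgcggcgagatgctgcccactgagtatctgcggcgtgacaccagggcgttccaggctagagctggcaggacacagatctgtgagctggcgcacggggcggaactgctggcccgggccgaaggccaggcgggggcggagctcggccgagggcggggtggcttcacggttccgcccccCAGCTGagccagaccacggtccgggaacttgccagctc

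In the Sparc window the CAGCTG lies 60 to 55 bases before the start and the CAGATG 10 to 5 bases before it. Both fall inside the peak, 50.5 and 0.5 bases from its summit. The single CAGCTG of Metrnl lies 38 to 33 bases before its start. Of 32851 promoter windows of this length, 66.2% hold at least 1 CANNTG, 31.8% at least 2 and 13.0% a CAGCTG. The Fndc5 window holds 0 and the Apln window 3. Such matches describe the letters only.

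**Figure D2:**
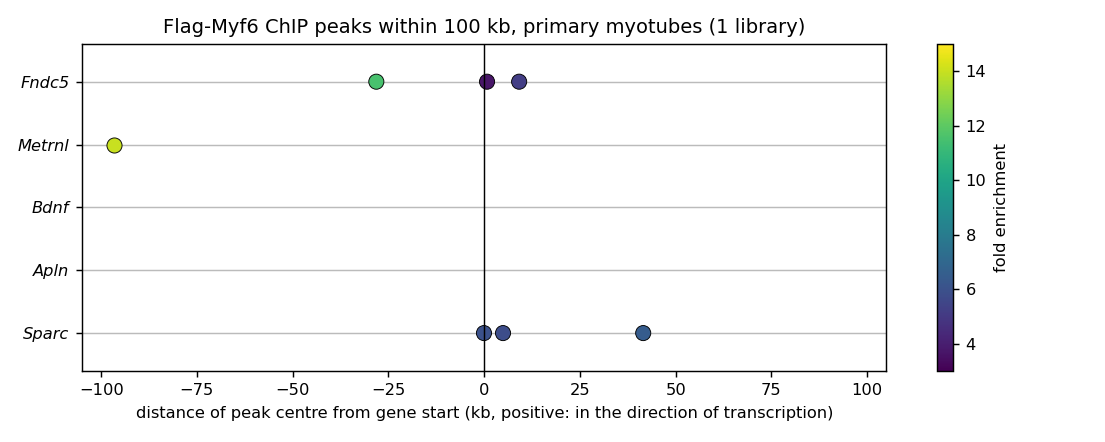
Myf6 ChIP peaks within 100 kb of the start of the 5 myokine genes with a start in the RefSeq table. The horizontal axis is the distance of the peak's centre from the gene's start in kb, positive in the direction of transcription, and colour gives the authors' fold enrichment. Sparc has a peak over its promoter window and Fndc5 has one centred 745 bases after its start. Metrnl has 1 peak 96.6 kb upstream, and Bdnf and Apln have none in this range.

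Fndc5, on chromosome 4 (129136870 to 129144593), encodes the precursor of irisin. It was 59.5, 57.4 and 37.3 RPM in uninjured WT and 42.2, 23.8 and 41.8 RPM in uninjured KO. The lowest WT library lay below 2 of the KO libraries, so the groups overlapped. The means were 51.4 ± 12.3 and 35.9 ± 10.5 RPM (SD, n = 3). The change was −0.52 on the log2(RPM + 1) scale (SE 0.33, 95% interval −1.26 to 0.23, limma adjusted p = 0.516). After injury Fndc5 was 61.5, 39.6 and 25.7 RPM in WT and 49.9, 20.4 and 47.5 RPM in KO. The WT libraries spanned nearly the whole range of the KO libraries, and the change was −0.12 (SE 0.43, 95% interval −1.14 to 0.90, limma adjusted p = 0.951). In bulk tissue such as this, fewer cells of a type and less RNA per cell cannot be told apart.

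Metrnl, on chromosome 11 (121702427 to 121717389), encodes meteorin-like, a hormone linked to exercise and to adipose tissue and immune cells. It was 8.82, 10.1 and 3.89 RPM in uninjured WT against 6.39, 7.64 and 5.70 RPM in uninjured KO. The KO libraries fell inside the range of the WT libraries. The change was −0.11 (SE 0.40, limma adjusted p = 0.938), and its sign was not stable: it was 0.09 with TMM scaling. After injury it was 8.18, 5.50 and 8.19 RPM in WT and 7.25, 11.9 and 6.74 RPM in KO, with a change of 0.20 (SE 0.27, limma adjusted p = 0.843). The high KO value was replicate 2, and without that library the change was −0.03.

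Apln, on the X chromosome (48025146 to 48034853), encodes apelin, the ligand of the receptor Aplnr. It was 3.12, 2.13 and 1.75 RPM in uninjured WT and 3.80, 3.38 and 3.11 RPM in uninjured KO. The highest WT library was just above the lowest KO library, and the other libraries separated. The change was 0.43 (SE 0.36, 95% interval −0.37 to 1.23, limma adjusted p = 0.628). The second WT value rests on 4 reads. With TMM scaling the uninjured groups no longer overlapped. After injury Apln was 4.73, 1.95 and 2.45 RPM in WT and 3.37, 6.47 and 3.46 RPM in KO, which overlapped. The change was 0.44 (SE 0.34, limma adjusted p = 0.692), and 0.19 without the KO replicate 2.

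Ostn, on chromosome 16 (27307641 to 27351209), encodes osteocrin, a secreted peptide that binds the natriuretic peptide clearance receptor Npr3. It was 28.6, 16.0 and 99.4 RPM in uninjured WT and 74.7, 42.7 and 158 RPM in uninjured KO. In injured muscle it was 18.6, 80.4 and 41.8 RPM in WT and 104, 61.5 and 210 RPM in KO. In both states the highest WT library lay among the KO libraries, so the groups overlapped. The ratio of means, KO over WT, was 1.92 uninjured and 2.66 injured. On the log2 scale the changes were 1.13 (SE 0.66, 95% interval −0.36 to 2.62, limma adjusted p = 0.480) and 1.45 (SE 0.61, 95% interval 0.01 to 2.88, limma adjusted p = 0.483). For the injured state the limma p before adjustment was 0.0493 and the exact two-sided permutation p was 0.2, where the smallest that 3 against 3 libraries can give is 0.1. The authors' deposited table gives a log2 fold change of WT over KO of −1.098 for Ostn in uninjured and −1.41 in injured muscle, with q-values of 0.795 and 0.842.

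The spread of Ostn was wide. Its SD within groups was 1.05 log2 units, at the 98.1 percentile of the 13337 tested genes and at the 98.5 percentile of the 1000 genes nearest to it in level. The other 6 tested myokines had SDs of 0.35 to 0.55, around the median of all genes of 0.44. Its values moved with the mitochondrial share of the library: in 4 of 4 groups the library with the lowest share had the highest Ostn, a pattern noticed after the values were seen. Those libraries had shares of 13.8%, 3.63%, 8.35% and 4.30% in uninjured WT, uninjured KO, injured WT and injured KO. With that share as a covariate the change was −0.74 in uninjured muscle (limma adjusted p = 0.204) and 1.36 in injured muscle (limma adjusted p = 0.0987). The median of all genes was −0.67 in the first of these fits and 0.01 in the second, so the Ostn estimate in uninjured muscle was near that median. Because the share itself was mostly lower in uninjured KO than in uninjured WT, the share and the genotype cannot be told apart there. Leaving out uninjured WT replicate 2, the shallow library, gave 0.57, leaving out WT replicate 3 gave 1.85, and leaving out KO replicate 3 gave 0.64. In injured muscle the change was 0.92 without WT replicate 1 and 0.98 without KO replicate 3.

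**Figure D3:**
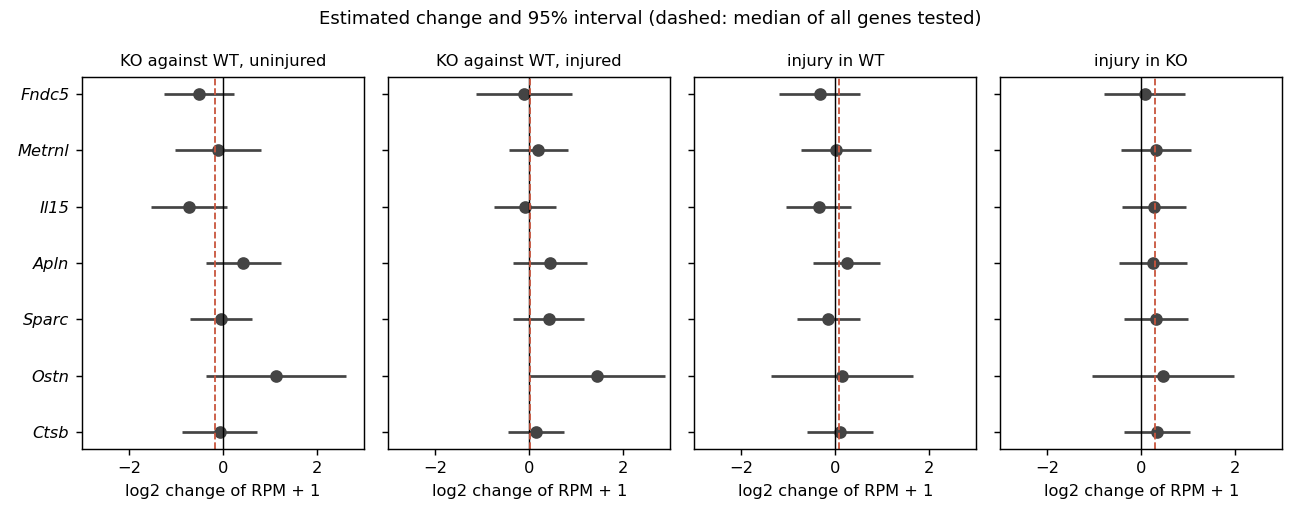
Estimated change of the 7 tested myokine genes in 4 comparisons, as the difference in log2(RPM + 1) with its 95% interval (limma). KO against WT is KO minus WT, and injury is injured minus uninjured. The dashed line marks the median of all genes tested. The interval of Ostn in injured muscle is the one that does not include 0, and it starts at 0.01.

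Il15, on chromosome 8 (82331624 to 82403252), encodes a cytokine abundant in muscle that is presented to its target cells by Il15ra. It was 10.1, 7.45 and 9.32 RPM in uninjured WT and 4.18, 7.32 and 4.02 RPM in uninjured KO. Every KO library lay below every WT library, the nearest being KO replicate 2 and WT replicate 2. The means were 8.96 ± 1.37 and 5.18 ± 1.86 RPM (SD, n = 3), a ratio of 0.58. The change was −0.72 (SE 0.36, 95% interval −1.53 to 0.09, limma adjusted p = 0.399), and the exact two-sided permutation p was 0.1, the smallest possible. Of all genes tested, 15.5% were lower in uninjured KO without overlap and 21.7% separated in either direction, so 1 of 7 myokines is near that background. The median change of all genes was −0.18. In injured muscle 0 of 7 separated, where 16.9% of all genes did. With TMM scaling the Il15 groups overlapped and the change was −0.52. The sum of the macrophage markers given above was lower in KO as well, and its part in the Il15 values was not tested.

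After injury Il15 was 9.15, 5.02 and 6.58 RPM in WT and 4.93, 8.63 and 5.69 RPM in KO. The highest KO library lay near the highest WT library and the groups overlapped. The change was −0.09 (SE 0.28, 95% interval −0.76 to 0.57, limma adjusted p = 0.942). Its sign rested on single libraries: it was 0.10 without WT replicate 1 and 0.05 without KO replicate 1. For the receptor Il15ra the values were 22.6, 31.9 and 18.4 RPM in uninjured WT and 14.2, 10.1 and 11.2 RPM in uninjured KO, which did not overlap either. That change was −0.95 (SE 0.32, limma adjusted p = 0.231). In injured muscle Il15ra was 25.6, 21.4 and 21.0 RPM in WT and 11.9, 29.8 and 11.3 RPM in KO. Those groups overlapped, with a change of −0.48 (SE 0.36, limma adjusted p = 0.692).

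Il7, on chromosome 3 (7572028 to 7613760), encodes a cytokine that supports lymphocyte survival. It stood at the limit of detection, with 24, 33, 18 and 24 reads summed over the 3 libraries of uninjured WT, uninjured KO, injured WT and injured KO. Its highest value in any library was 0.875 RPM, in uninjured KO replicate 1. It was at 0 in uninjured WT replicate 3, where 3 reads would have been 0.0988 RPM, and in uninjured KO replicate 2, where they would have been 0.236 RPM. No difference in Il7 between the groups was detectable at this depth.

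Bdnf, on chromosome 2 (109674700 to 109727043), encodes brain-derived neurotrophic factor, which acts through the receptor Ntrk2. It was also low, with values of 0, 0 and 0.198 RPM in uninjured WT and 0.418, 1.26 and 0.491 RPM in uninjured KO. These are 6 reads in WT against 48 in KO. The 3 KO values lay above the 3 WT values, as they did for 6.2% of the genes tested, which do not include Bdnf, and the exact two-sided permutation p was 0.1. The WT replicate 2 value of 0 says little, since 3 reads in that library are worth 1.60 RPM, more than any Bdnf value. After injury Bdnf was 0, 0.262 and 0.191 RPM in WT and 0.348, 0.166 and 0.263 RPM in KO, which overlapped. The limma fit without a filter on low values put Bdnf at 0.67 in uninjured muscle (SE 0.20, adjusted p = 0.372) and at 0.13 after injury (SE 0.10, adjusted p = 0.799). In the authors' deposited table the log2 fold change of WT over KO for Bdnf in uninjured muscle was −3.30, with a q-value of 0.875.

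Sparc (chromosome 11, 55394159 to 55420080), which binds collagen and guides matrix assembly, was 574, 296 and 499 RPM in uninjured WT and 458, 412 and 416 RPM in uninjured KO. The KO libraries lay within the range of the WT libraries. The change was −0.04 (SE 0.29, 95% interval −0.70 to 0.62, limma adjusted p = 0.971), and 0.19 with TMM scaling. After injury it was 478, 315 and 418 RPM in WT and 424, 829 and 423 RPM in KO. The KO replicate 2 value stood far above the other 11 libraries, and the change of 0.41 (SE 0.32, limma adjusted p = 0.693) was 0.09 without it. Sparc is also made by fibroblasts and endothelial cells. In that library 6 endothelial markers (Pecam1, Cdh5, Kdr, Tie1, Emcn and Egfl7) summed to 685 RPM against 197 to 365 RPM elsewhere, and 5 nerve and Schwann cell markers to 1134 RPM against 82.2 to 636 RPM. The sums of pericyte and smooth muscle markers (670 RPM) and of red blood cell markers (583 RPM) were also the highest of the 12 libraries there. Its fibre marker sum, 110090 RPM, was the lowest, and its mitochondrial share, 23.2%, was the highest. The sum of 6 fibroblast markers there was 982 RPM, inside the range of the other libraries (425 to 1325 RPM). The part of these differences in the Sparc value was not tested. The Myf6 peak over the Sparc promoter was thus beside a gene for which these libraries showed no genotype difference beyond their spread.

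Ctsb (chromosome 14, 63122462 to 63145923) encodes cathepsin B. It was 345, 262 and 407 RPM in uninjured WT and 388, 185 and 436 RPM in uninjured KO, so KO spanned a wider range around the same level. The change was −0.08 (SE 0.36, 95% interval −0.88 to 0.73, limma adjusted p = 0.950), and 0.15 with TMM scaling. With the mitochondrial share as a covariate it was −1.005 (limma adjusted p = 0.0129), in a fit where the median of all genes was −0.67. After injury it was 373, 308 and 400 RPM in WT and 512, 290 and 422 RPM in KO, with a change of 0.15 (SE 0.25, limma adjusted p = 0.877). Without the high KO replicate 1 that change was −0.03.

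Injury was compared within each genotype, in a fit of all 12 libraries that joins the separately made tables and does not pair them by animal number. In WT the changes of the 7 tested myokines ran from −0.35 (Il15, SE 0.32) to 0.24 (Apln, SE 0.33), with limma adjusted p = 1 for each. In WT 0 of 7 separated between the injury states, where 10% of all genes did, 7.48% upward and 2.54% downward. In KO they ran from 0.07 (Fndc5, SE 0.40) to 0.46 (Ostn, SE 0.70), with limma adjusted p from 0.751 to 0.957. The 7 estimates in KO were positive with scaling to the total, and so was the median of all genes, at 0.29. With TMM scaling that median was 0.07 and the Fndc5 estimate was −0.20. In the test of genotype by injury the estimates ran from 0.01 (Apln) to 0.63 (Il15), with limma adjusted p = 0.9999 for each. The median of all genes was 0.20 in that test. With the animal number as a block, 0 of all genes passed for injury in WT, for injury in KO or for the interaction.

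Il15 was also compared between libraries with the same animal number, where the outcome in KO depended on the scaling. Injured minus uninjured, on the log2(RPM + 1) scale with scaling to the total, it was −0.13, −0.49 and −0.44 in the 3 WT animals and 0.19, 0.21 and 0.41 in the 3 KO animals. Thus it was lower after injury in 3 of 3 WT animals and higher in 3 of 3 KO animals, but with TMM scaling KO animal 2 gave −0.36. The estimate for injury in KO, 0.27 with scaling to the total, was 0.03 with TMM scaling, −0.084 with DESeq2 and −0.070 with edgeR, the last 2 having the sign seen in WT. The interaction was 0.63 (SE 0.45, 95% interval −0.34 to 1.59, limma adjusted p = 0.9999). Ostn was higher after injury in 3 of 3 KO animals, by 0.47, 0.52 and 0.40, and in 2 of 3 with TMM scaling. In WT it went −0.59, 2.26 and −1.23, and the second of these starts from the shallow library. Metrnl was likewise higher after injury in 3 of 3 KO animals, by 0.16, 0.58 and 0.21, and in 2 of 3 with TMM scaling. With scaling to the total the median of all genes for injury in KO was 0.29. The share of all genes higher in 3 of 3 KO animals was not counted.

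**Figure D4:**
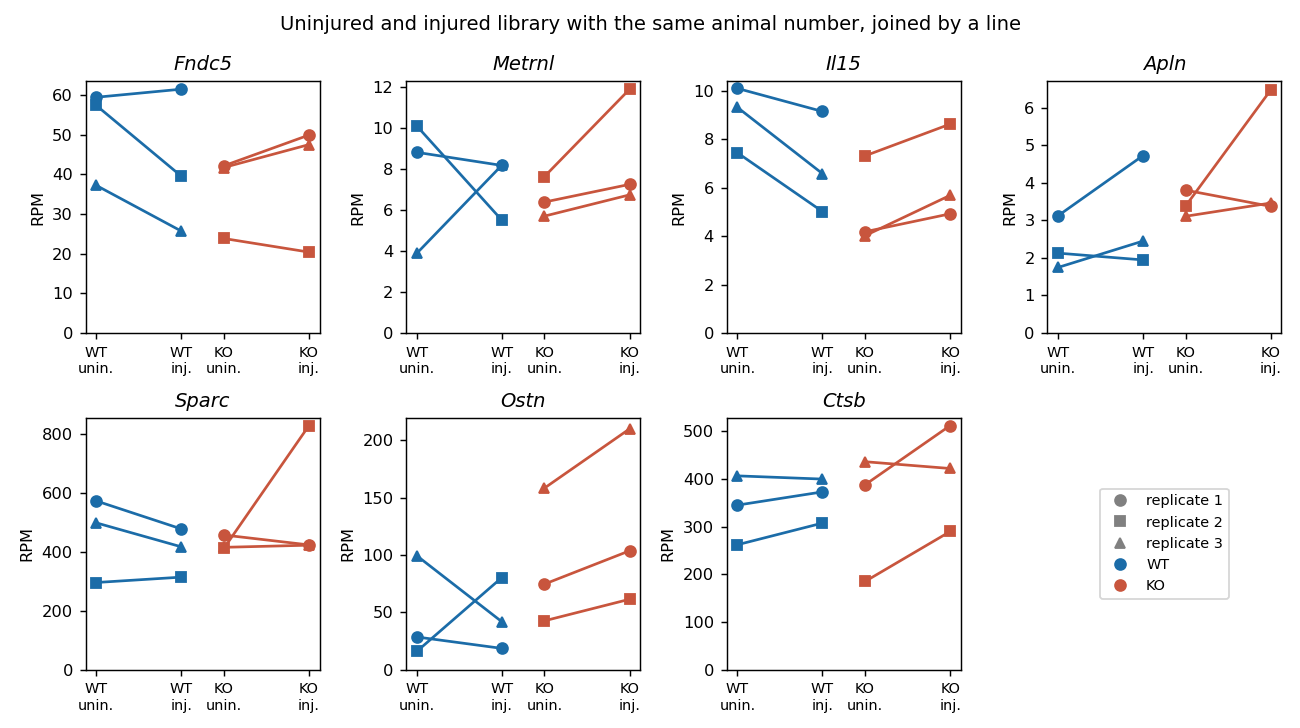
RPM of the 7 tested myokine genes in the uninjured and injured library that carry the same animal number, joined by a line, for 3 WT and 3 KO animals (vertical axes from 0, own scale per gene). In the Il15 panel the 3 WT lines go down and the 3 KO lines go up, with scaling to the total.

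Bdnf was lower after injury in KO without overlap, at 0.166 to 0.348 RPM against 0.418 to 1.26 RPM. Of all genes tested, 0.622% were lower in that comparison without overlap, but Bdnf is not among the genes that passed the filter, and its groups rest on 29 and 48 reads. In the fit without a filter the change was −0.42 (SE 0.17, limma adjusted p = 0.863).

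The receptors and other genes around the myokines were followed in 4 lists. Among receptors and binding partners, 11 of 14 were tested and 0 passed in uninjured KO against WT, with a median change of 0.16 against −0.18 for all genes. In injured muscle 0 of 11 passed and the median was 0.33 against 0.01. The smallest p-values in uninjured muscle belonged to Il15ra, given above, and to Itgav, an integrin subunit named as part of the irisin receptor. Itgav was 25.8, 19.1 and 27.5 RPM in WT and 8.71, 3.31 and 24.7 RPM in KO, which overlapped, with a change of −1.28 (SE 0.57, limma adjusted p = 0.358), and its change in the injured state was 0.18 (SE 0.18, limma adjusted p = 0.765). After injury, and chosen after their values were seen, Ntrk2 and Npr3 were the receptors with the smallest p-values. Ntrk2, the Bdnf receptor, was 3.15, 2.88 and 4.55 RPM in WT and 19.5, 7.52 and 11.9 RPM in KO, without overlap (change 1.55, SE 0.34, limma adjusted p = 0.213). Npr3, the Ostn receptor, was 4.13, 1.61 and 4.55 RPM in WT and 22.1, 5.48 and 15.6 RPM in KO, also without overlap (change 1.69, SE 0.52, limma adjusted p = 0.348). The sum of the adipocyte markers was higher in the same KO libraries, as given above, although each marker alone overlapped. Adipoq was 17.8, 3.97 and 34.4 RPM in WT and 172, 24.4 and 74.1 RPM in KO. The part of these markers in the Npr3 values was not tested. Groups separated upward in 8.29% of all genes in that comparison, and in 3 of the 11 receptors tested.

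Among relatives and processing partners of the myokines, 20 of 27 were tested in uninjured muscle and 19 in injured muscle, and 0 passed in either. The medians were −0.16 and −0.11. Fndc3a, a membrane protein with fibronectin type III domains like those of Fndc5, was 16.2, 9.04 and 20.4 RPM in uninjured WT and 3.16, 0.236 and 4.68 RPM in uninjured KO. The groups did not overlap, as for 15.5% of all genes in that direction, and the change was −2.33 (SE 0.59, limma adjusted p = 0.145). The 0.236 RPM of KO replicate 2 is worth 3 reads in that library. After injury Fndc3a was 14.3, 10.9 and 16.0 RPM in WT and 4.71, 7.97 and 4.43 RPM in KO, again without overlap (change −1.16, SE 0.26, limma adjusted p = 0.217). In that state 8.63% of all genes were lower in KO without overlap. Ctss, a cathepsin of macrophages and other antigen-presenting cells, was 10.0, 7.45 and 13.5 RPM in uninjured WT and 2.85, 2.68 and 4.77 RPM in uninjured KO (change −1.35, SE 0.38, limma adjusted p = 0.173). After injury its groups overlapped (change −0.39, SE 0.24, limma adjusted p = 0.627). The sum of the macrophage markers was lower in KO in both states, although after injury only C1qb and Mrc1 of them separated. The part of these markers in the Ctss values was not tested.

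Among other secreted exercise-linked proteins, 12 of 15 were tested in uninjured muscle, where the median change was −0.71, and 11 in injured muscle, where it was −0.08. None of either set passed with limma. The smallest p belonged to Vegfa, the angiogenic growth factor, which was 264, 179 and 192 RPM in uninjured WT and 76.0, 45.4 and 74.1 RPM in uninjured KO. Its change was −1.70 (SE 0.30, limma adjusted p = 0.0580). In injured muscle Vegfa was 249, 194 and 225 RPM in WT and 64.5, 147 and 66.8 RPM in KO (change −1.36, SE 0.33, limma adjusted p = 0.259). Erfe, or erythroferrone, was 1.74, 4.79 and 2.64 RPM in uninjured WT and 1.14, 0.157 and 1.15 RPM in uninjured KO (change −1.15, SE 0.44, limma adjusted p = 0.286). The highest and lowest of these values rest on few reads. In WT replicate 2, 3 reads are worth 1.60 RPM, and in KO replicate 2 they are worth 0.236 RPM, more than the Erfe value there. After injury Erfe was 1.58, 1.87 and 2.45 RPM in WT and 0.910, 3.10 and 1.76 RPM in KO, which overlapped (change −0.08, SE 0.31, limma adjusted p = 0.955).

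Ppargc1a is a coactivator of mitochondrial genes that is known to raise Fndc5 in muscle. Of the 12 genes listed around it, 12 were tested in uninjured muscle and 11 in injured muscle, and 0 passed in either, with medians of −0.04 and 0.17. Ppargc1a itself was 10.9, 7.98 and 14.3 RPM in uninjured WT and 7.72, 8.66 and 18.5 RPM in uninjured KO, which overlapped. The smallest p-values were those of Ucp3, a mitochondrial carrier (change −0.56, SE 0.36, limma adjusted p = 0.519), and of Ppargc1b, a relative of Ppargc1a (change −0.71, SE 0.46, limma adjusted p = 0.523). After injury Ucp3 was at −0.24 (SE 0.23, limma adjusted p = 0.756). Ppargc1b was then higher in KO, at 3.72, 4.37 and 3.36 RPM against 3.23, 2.47 and 2.33 RPM in WT without overlap (change 0.39, SE 0.20, limma adjusted p = 0.558), and its interaction was 1.098 (SE 0.51, limma adjusted p = 0.9999). In injury within either genotype and in the interaction, 0 genes of the 4 lists passed. At an unadjusted limma p under 0.05 there were 0 of them for injury in WT (1.29% of all genes). For injury in KO (3.51%) there were 1 of 12 receptors and 2 of 20 relatives, each upward, and 0 in the other lists. For the interaction (1.56%) there were 1 of 12 receptors (Itgav), 1 of 20 relatives (Ctss) and 1 of 12 genes around Ppargc1a (Ppargc1b), each with a positive estimate, and 0 of 12 other secreted proteins.

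**Figure D5:**
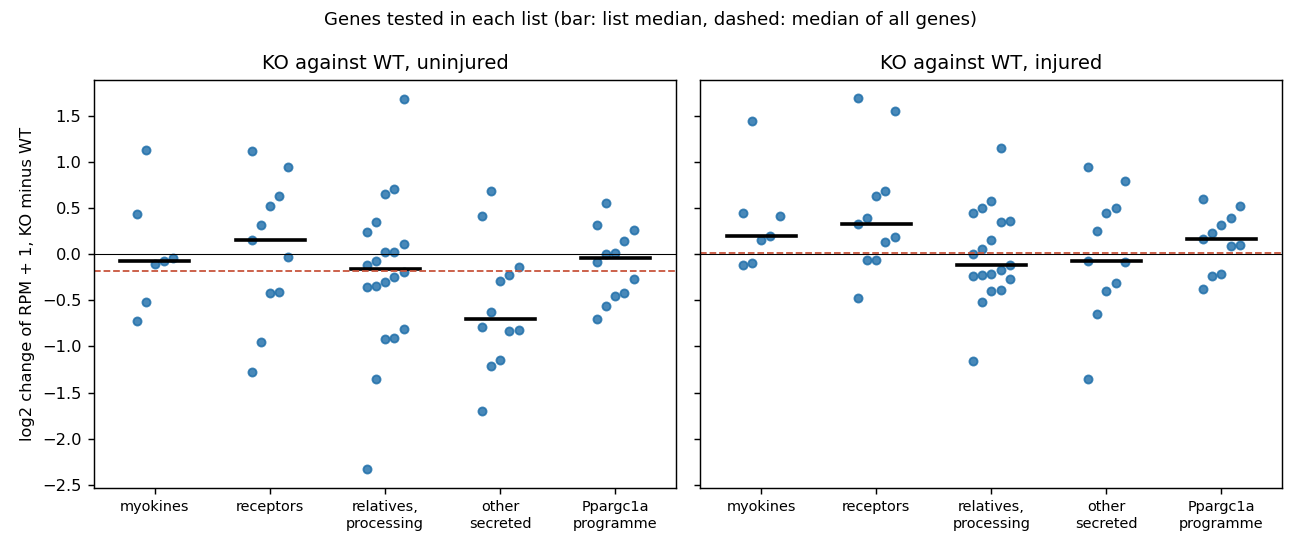
Change of each tested gene in KO against WT, as the difference in log2(RPM + 1), in uninjured and injured muscle, for the myokines and the 4 lists of related genes. Each point is a gene, black bars are list medians and the dashed line is the median of all genes tested. None of the points passed the limma threshold, and Vegfa, Fndc3a and Ostn are among those far from 0.

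The myokines did not vary as 1 group. Across the 12 libraries, which differ in group, depth and mitochondrial share, Pearson's r between pairs of them on log2(RPM + 1) ran from −0.60 (Il15 and Ostn) to 0.70 (Apln and Sparc). The genes most like each were found among 12040 protein-coding genes, as a description of these libraries. They were Prdx2 (r = 0.88) and Gfra4 (0.83) for Fndc5, Erbb3 (0.95) and Dnase2a (0.92) for Metrnl, and Tor2a and Sertad4 (both 0.96) for Il15. For Apln they were Acd (0.96) and Rin3 (0.93), and for Sparc they were Rgs7bp (0.94) and Sema6a (0.93). Exoc4 and BC005624 (both 0.95) were closest to Ostn, and Selenbp1 (0.97) and Fam13a (0.96) to Ctsb. Without the 2 libraries farthest from the median of each myokine, r for these pairs was between 0.76 and 0.94. The pairs were picked for the highest r in these same 12 libraries, so that range is no separate check of them.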

How the data were processed

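RNA libraries were made from Trizol extracts with the TruSeq RNA v2 kit, per the labels' protocols. The submitters' processing notes name Bowtie 1.1.0, HISAT2 2.1.0, SAMtools, featureCounts, DESeq2 and MACS2 2.1.0.20140616 and the builds mm10 and GRCm38.p5, without their roles. Strand use is not given in the sources used here. The authors deposited RPM values, which sum to 1000000 per library, and for each gene a p-value, a q-value and a log2 fold change of WT over KO with its error. The deposited peak list gives, per the file headers, the signal height at the summit, the ratio to the local background (fold enrichment) and −log10 of the q-value, from MACS2 with a q cutoff of 0.05. Those per-peak values are the authors' own. Peak distances used RefSeq GRCm38.p6 gene positions.

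Whole reads were recovered from the RPM steps (100% of values whole within 0.1 read in each library). The test was limma 3.58.1 (R 4.3.3) with a mean-variance trend on log2(RPM + 1), over genes that reached 1 RPM in 3 or more fitted libraries, with two-sided Benjamini-Hochberg adjustment at 0.05. A pseudocount of 1 understates changes of low genes. KO against WT used the 6 libraries of a state, and injury and the interaction used all 12 without pairing by animal number. The fit was tested on simulated data with the same spread setting for all genes and without differences in mitochondrial share. That test does not show the power for the myokines. Alternatives were edgeR 4.0.16 and DESeq2 1.42.0 on recovered reads, TMM scaling, scaling to non-mitochondrial reads, a pseudocount of 0.1, no filter, a replicate block, each library left out and the authors' q-values. The replicate block was the replicate number for KO against WT, and the animal number for injury and the interaction. The mitochondrial share as a covariate and the window around the whole gene were added after seeing the data. The myokines and lists were chosen with earlier results of these data known. Named from each list were genes past the threshold or, where none passed, the 2 with the smallest p in uninjured KO against WT, and for each tested myokine the 2 genes with the highest Pearson's r. Where nothing says that libraries come from separate animals, p-values measure only the spread between libraries. Between injury states the animal number pairs the libraries, as read from the sample codes. The correlations of same-numbered deviations from the group means were 0.28, −0.23 and 0.02 in WT and 0.02, 0.50 and 0.63 in KO. Reads are without molecular identifiers, so floors cover counting error only.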

Additional observations from a re-analysis of the deposited data

Results flagged for a closer look

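With scaling to the total, the change of Il15 after injury differed in sign between the genotypes. It was lower after injury in 3 of 3 WT animals and higher in 3 of 3 KO animals. The estimate for injury in KO was 0.27 with that scaling, 0.03 with TMM scaling, −0.084 with DESeq2 and −0.070 with edgeR, while in WT it was negative under each, so the difference in sign was absent with DESeq2 and edgeR. The difference of the changes, KO minus WT, was 0.63 on the log2(RPM + 1) scale (SE 0.45, limma adjusted p = 0.9999), so the test of the difference did not pass. It was 0.39 with DESeq2 and with edgeR and 0.44 with TMM scaling, where KO animal 2 went the other way. The values of the 4 groups overlapped except between uninjured WT and uninjured KO. With scaling to the total the median of all genes was 0.29 for injury in KO and 0.20 for the difference of the changes. The share of all genes with the same signs in the WT and KO animals was not counted.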

How the results depend on the processing

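Over 630 values of a tested myokine under an alternative, 556 kept their direction and their side of the limma threshold, 72 changed sign and 2 moved past the threshold. The changes of sign were among estimates that were not past the threshold. The count of myokines past the threshold stayed at 0 in the 5 comparisons when any 1 library was left out (range 0 to 0), and under the alternatives except 2, both in uninjured KO against WT. With the replicate block it was 1 (Ostn, 1.13, adjusted p = 0.0213), and with the mitochondrial share as a covariate it was 1 (Ctsb, −1.005, adjusted p = 0.0129). Of all 12460 genes, 752 passed with that block and 3746 with that covariate. WT and KO share only replicate numbers, not animals: the correlations of same-numbered deviations were 0.04, 0.26 and 0.37 uninjured and −0.45, −0.60 and −0.30 injured. The block changed no other call of a myokine in these comparisons. The cause of these differences was not tested.

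In uninjured KO against WT, Metrnl became 0.066 with DESeq2, 0.065 with edgeR, 0.091 with TMM scaling, 0.076 in the authors' deposited table and 0.52 with the mitochondrial covariate. Sparc became 0.17, 0.16, 0.19 and 0.17, and Ctsb 0.14, 0.14, 0.15 and 0.15, under the first 4 of these, and Ostn became −0.74 with the covariate. The median of all genes with the covariate was −0.67 in that comparison. For injury in WT, Metrnl became −0.12 with DESeq2, −0.10 with edgeR, −0.045 with TMM and −0.080 with scaling to non-mitochondrial reads. Ostn became −0.028 with DESeq2 and −0.027 with edgeR. With the covariate Ostn became −0.56, Ctsb −0.20 and Sparc 0.028. For injury in KO, Fndc5 became −0.14, −0.13 and −0.20 with DESeq2, edgeR and TMM, and Il15 −0.084 and −0.070 with DESeq2 and edgeR. In the interaction, Apln became −0.24, −0.25 and −0.16 with DESeq2, edgeR and TMM, −0.0099 with a pseudocount of 0.1 and −0.26 with the covariate, and Metrnl −0.11 with the covariate.

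Leaving out 1 library changed the sign of some estimates, whose ranges were as follows. In uninjured KO against WT they were −0.47 to 0.12 for Metrnl, −0.32 to 0.15 for Sparc and −0.31 to 0.31 for Ctsb. In injured KO against WT they were −0.42 to 0.29 for Fndc5, −0.30 to 0.10 for Il15, −0.034 to 0.33 for Metrnl and −0.033 to 0.38 for Ctsb. For injury in WT they were −0.35 to 0.24 for Metrnl, −0.042 to 0.44 for Apln, −0.43 to 0.048 for Sparc, −0.41 to 0.87 for Ostn and −0.065 to 0.25 for Ctsb. For injury in KO they were −0.19 to 0.47 for Fndc5, −0.0021 to 0.38 for Apln, −0.015 to 0.47 for Sparc and −0.050 to 0.57 for Ctsb. In the interaction they were −0.24 to 0.29 for Apln, −0.41 to 0.88 for Ostn and −0.16 to 0.46 for Ctsb.

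The number of all genes past the threshold, 35 uninjured and 34 injured, moved far more. Uninjured it was 663 with DESeq2, 55 with edgeR, 96 with TMM, 199 with scaling to non-mitochondrial reads, 20 with a pseudocount of 0.1, 1 without the filter, 752 with the replicate block, 3746 with the mitochondrial covariate and 331 by the authors' q-values. Of the calls, 54.2% were higher in KO with TMM and 15.6% with scaling to non-mitochondrial reads. Injured it was 427 with DESeq2, 19 without the filter, 0 with the block, 1137 with the covariate and 225 by the authors' q-values. Leaving out 1 library gave 3 to 84 uninjured and 0 to 2343 injured, the 2343 without KO replicate 2, and 0 to 1 for injury in KO. With a fold of at least 10, the myokines with a peak within 50 kb numbered 1 in place of 2. Depth limits Bdnf and Il7, and every gene near 1.60 RPM in the smallest library.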
